A study of Homo sapiens with 6 samples.

Results

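AEN, BTG2, CCNG1, CDKN1A, MDM2, GDF15, SESN1, SESN2, ZMAT3 and FAS are textbook targets of the transcription factor p53, and their start sites were examined in ChIP-seq of 2 histone marks, H3K27ac and H3K4me3. The 10 genes are members of a set of 24129 genes (19136 protein-coding genes and 4993 lncRNA genes) whose TSSs were set against the called regions. They were selected on values of these data, namely the ranks of their H3K27ac and H3K4me3 regions with each siRNA, AEN being the gene with the largest rise in H3K27ac rank, so the values below are a description and no test was made. The cells were HSC3, an established line of oral squamous cell carcinoma (OSCC), 72 h after transfection with a control siRNA (siCONT) or with an siRNA against the lncRNA DLEU1 (siDLEU1). HSC3 is 1 line and siDLEU1 is 1 siRNA, and 1 library was made per siRNA and mark, so the spread between replicates is unknown and p-values were not computed.

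p53 is a DNA-binding factor activated by DNA damage and other stresses. It binds a site made of 2 adjoining 10-base elements and turns on genes that stop the cell cycle, trigger apoptosis, adjust metabolism and, through MDM2, switch p53 itself off again. H3K4me3 marks the start sites of genes that are active or poised, and H3K27ac marks active promoters and enhancers.

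The cell type was checked first. All 8 genes of a squamous marker list (KRT5, KRT14, KRT6A, KRT17, TP63, CDH1, EGFR and LAMB3) had a region of both marks in all 4 lists, and 0 of the 7 annotated genes that mark blood, endothelium, muscle, liver or fibroblasts had one in any list. Between 17672 and 19705 regions were called per library for H3K27ac and between 56943 and 58582 for H3K4me3. The depth recovered from the lists was 21.5 M reads for siCONT and 29.4 M for siDLEU1 in H3K27ac, and 28.4 M and 22.3 M in H3K4me3. At its summit, the median H3K27ac region held 75 fragments with siCONT and 68 with siDLEU1, and the median H3K4me3 region held 47 and 41.

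Matches to the p53 consensus lay within 3 kb of the canonical TSS of 8 of the 10 genes, 9 matches in all, and SESN1 and SESN2 had none in that window. The consensus was the p53 response element without a spacer, with the core C and G of each element required and at most 2 mismatches over 20 bases, and it reads the same on both strands. The sequences below are those of the hg19 genome around the genes the results turn on. Capitals mark the 20 matched bases, 5 bases are given on either side, and all are on the strand of the gene. The AEN match sits 25 bp upstream of the TSS and is wholly inside none of the 4 called regions there, of which the H3K4me3 region with siDLEU1 begins within it, at position 89164543. The first CCNG1 match, 340 bp downstream and with 1 mismatch, was inside the called regions of both marks under both siRNAs. The CDKN1A and MDM2 matches, at -2256 bp and 755 bp from the TSS, were inside the H3K4me3 regions of both siRNAs. No H3K27ac region reached the CDKN1A match, and those of MDM2 ended within the match, at positions 69202703 with siCONT and 69202717 with siDLEU1. The FAS match, 661 bp downstream, was inside the regions of both marks under both siRNAs. The ZMAT3 match had 0 mismatches and lay 1612 bp downstream, in no region.
AEN, chr15:89164532-89164561, plus strand: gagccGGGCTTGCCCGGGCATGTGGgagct
CCNG1, chr5:162864927-162864956, plus strand: tgtgaGCACAAGCCCAGGCTAGTCCgaggc
CDKN1A, chr6:36644221-36644250, plus strand: gtcagGAACATGTCCCAACATGTTGagctc
MDM2, chr12:69202698-69202727, plus strand: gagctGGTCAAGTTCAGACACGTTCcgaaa
FAS, chr10:90751061-90751090, plus strand: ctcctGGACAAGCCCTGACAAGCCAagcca
ZMAT3, chr3:178787971-178788000, minus strand: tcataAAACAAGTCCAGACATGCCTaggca

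Within 1 kb of the canonical TSS, 5 of the 10 members held a match, against 1.48% of all 24129 genes, which describes genes chosen as p53 targets. A match is a run of letters and not a measured binding site.

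The 150 bases before the annotated start are shown for AEN, BTG2 and CCNG1, the 3 genes whose H3K27ac rank differed most. Capitals mark CCAAT or its reverse complement ATTGG, the box that NF-Y is known to bind. In the 150 bases before the canonical TSS it was found in 6 of the 10 members. The share was 25.7% of all 24129 genes, which include lncRNA genes and genes with no called region. The stretches shown end instead at the most upstream annotated TSS near the canonical one.
AEN, chr15:89164418-89164567, plus strand: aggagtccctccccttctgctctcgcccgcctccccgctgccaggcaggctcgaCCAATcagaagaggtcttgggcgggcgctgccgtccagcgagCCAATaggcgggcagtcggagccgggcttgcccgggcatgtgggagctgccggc
BTG2, chr1:203274469-203274618, plus strand: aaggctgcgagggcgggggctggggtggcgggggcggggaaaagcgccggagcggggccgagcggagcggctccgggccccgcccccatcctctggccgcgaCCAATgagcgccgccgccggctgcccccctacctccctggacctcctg
CCNG1, chr5:162864425-162864574, plus strand: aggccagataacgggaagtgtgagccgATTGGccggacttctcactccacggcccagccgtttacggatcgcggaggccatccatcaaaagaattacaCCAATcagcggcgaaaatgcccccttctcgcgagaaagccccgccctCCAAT

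Each gene was given the percentile rank, within its list, of the fold enrichment of the strongest region within 1 kb of any of its TSSs. A rank of 100 is the top of the list and 0 means no region. A difference of at least 10 points between siDLEU1 and siCONT was counted. Of the 9 members with an H3K27ac region, 3 (AEN, BTG2 and SESN1) ranked higher by that much with siDLEU1, against 16.8% of 13629 genes with a region, and 5 (CCNG1, ZMAT3, CDKN1A, SESN2 and FAS) ranked lower, against 36.8% of those genes. The median change was -11.5 points over the members and -4.55 over all genes. For H3K4me3, 2 of the 10 members (AEN and BTG2) ranked higher, against 20.2% of 14049 genes, and 1 (CCNG1) ranked lower, against 18.6%. The medians were -1.37 and 0.504 points. FAS, at -11.5 points in H3K27ac, lay just inside the limit of 10, and SESN2, at -8.53 points in H3K4me3, just outside it.

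**Figure D1:**
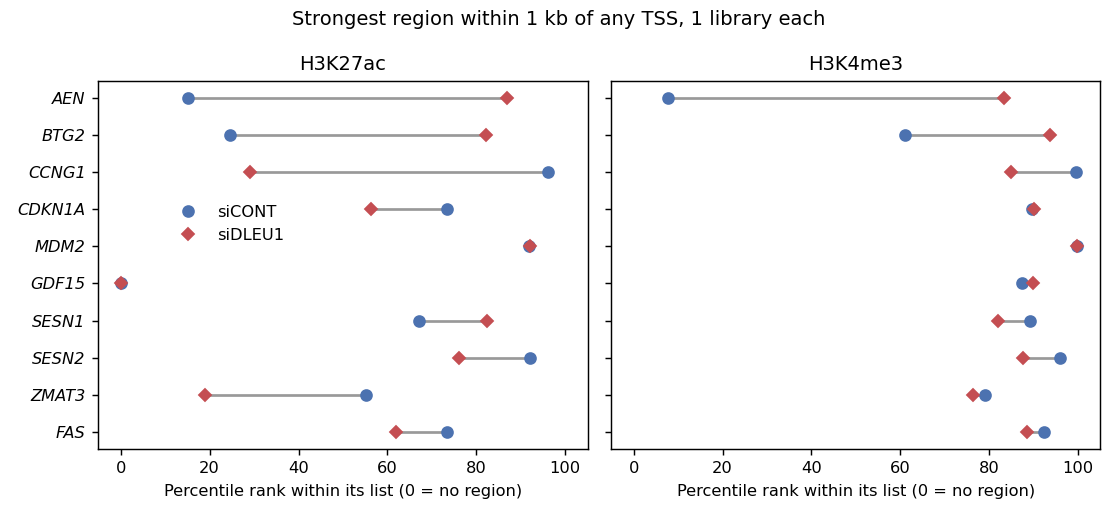
Percentile rank (0 to 100, where 0 means no region) of the strongest region within 1 kb of any TSS of each p53 target, for H3K27ac on the left and H3K4me3 on the right, with siCONT as circles and siDLEU1 as diamonds, 1 library each. AEN moves from 15.1 to 86.8 in H3K27ac and from 7.73 to 83.3 in H3K4me3, while CCNG1 moves the other way and MDM2 stays at the top of both scales.

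Fold enrichment is a ratio to a local control, so its parts were also read separately: the number of fragments at the summit, and the local control level that went into the ratio. The control library of a siRNA served both marks, and a whole-number level of 1 to 5 stands for that many control fragments, so it is itself a small count. The siCONT H3K4me3 list is an exception. Its assumed fragment length, 200 bp, is such that a whole number could also be an average over a wider window. Levels of 0.497 and 0.439 in H3K27ac, and 0.532 and 0.463 in H3K4me3, siCONT first, are the genome-wide background of the list. They are a floor and not a local measurement. Other values were solved as averages over wider windows. Genes were ranked by fragments too, and the ratio of fragments between siRNAs was set against that of the median gene, which was 0.793 in H3K27ac and 0.912 in H3K4me3. Intervals are exact 95% intervals and cover counting error only.

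AEN, the apoptosis-enhancing nuclease, lies on chromosome 15 from 89164568 to 89175512, and its regions lie at the start of the gene, with all 4 summits between 216 and 265 bp downstream of the canonical TSS, in intron 1 of the canonical transcript and in the first exon of other transcripts. Its H3K27ac summit held 54 fragments with siCONT and 94 with siDLEU1, and its H3K4me3 summit held 43 and 73. In both marks AEN was the only member with more fragments with siDLEU1. Fewer fragments were held by 8 of 9 members in H3K27ac and 9 of 10 in H3K4me3. The shares over all genes with a region in both lists were 90.5% and 64.4%. Relative to the median gene the ratio was 2.20 in H3K27ac (1.55 to 3.13) and 1.86 in H3K4me3 (1.26 to 2.78). Ratios at least as high were seen at 0.148% and 1.58% of genes. AEN was the 1 member of 9 whose ratio was at least 1.5 times higher in H3K27ac, and of 10 in H3K4me3, against 2.74% and 5.81% of genes. None of the 9 was lower by that much in H3K27ac, against 1.77%. Both H3K27ac calls depend on the scaling: relative to recovered depth in place of the median gene, AEN was at 1.27, so that 0 of 9 members were higher by at least 1.5 times and 8 were lower, against 0.0546% and 80.8% of all genes. The local control level was 2 with siCONT and 0.439 (H3K27ac) or 0.463 (H3K4me3) with siDLEU1, both siDLEU1 values being the background floor. The fold enrichment was 6.35 and 15.6 in H3K27ac, and 3.95 and 15.7 in H3K4me3. The change in rank by fold enrichment was 71.7 points in H3K27ac and 75.6 in H3K4me3, and by fragments alone it was 39.5 and 31.9. A rise at least as large by fold enrichment was seen at 0.00734% of 13629 genes in H3K27ac, which is AEN itself, and at 0.0641% of 14049 genes in H3K4me3. By fragments, 0.0220% of genes rose at least as much in H3K27ac and 2.06% in H3K4me3.

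**Figure D2:**
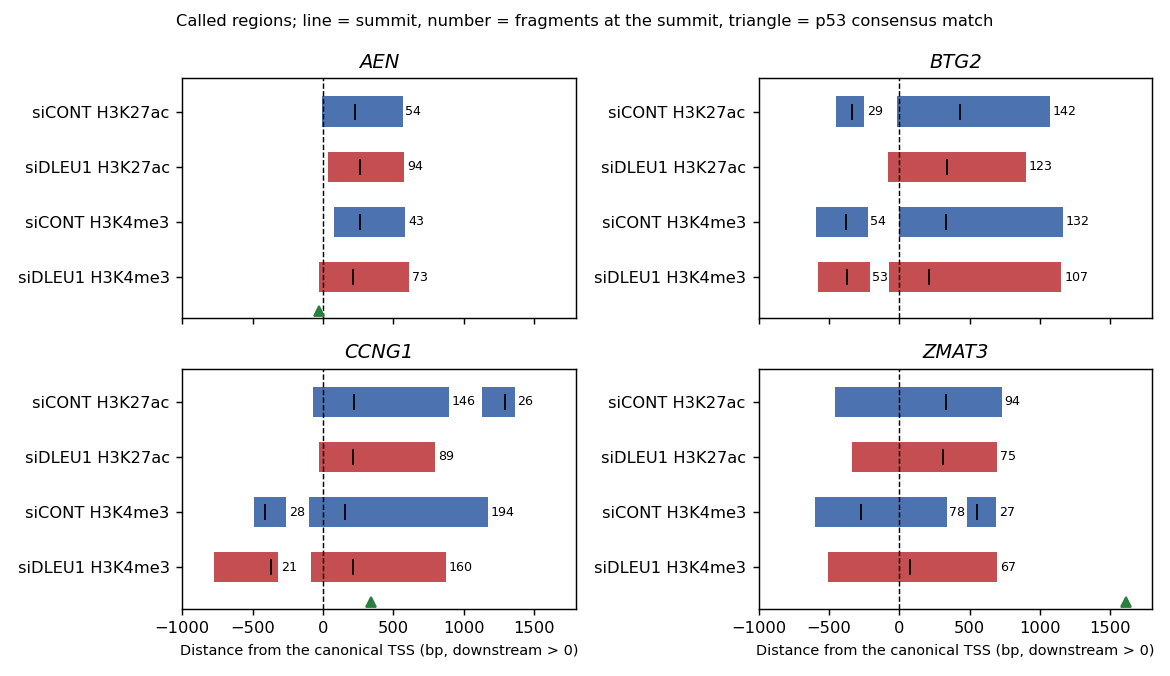
Called regions (bars) at AEN, BTG2, CCNG1 and ZMAT3 against distance from the canonical TSS in bp, siCONT in blue and siDLEU1 in red, with a line at each summit, the fragments at the summit beside it, and triangles at p53 consensus matches inside the plotted range. The AEN bars carry 54 and 94 fragments in H3K27ac and 43 and 73 in H3K4me3, and the main bars of each gene overlap under both siRNAs.

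BTG2, CCNG1 and CDKN1A act on the cell cycle. BTG2 is an antiproliferative protein that recruits the mRNA deadenylase. The BTG2 summit in H3K27ac held 142 fragments with siCONT and 123 with siDLEU1, and its H3K4me3 summit 132 and 107. These are ratios of 1.09 (0.851 to 1.40) and 0.889 (0.682 to 1.16) relative to the median gene, and both intervals include 1. The local control level was 5 with siCONT and 1 with siDLEU1 in H3K27ac, and 3 and 0.463 in H3K4me3. The BTG2 rank by fold enrichment changed by 57.6 points in H3K27ac (24.5 to 82.1) and 32.7 in H3K4me3 (61.0 to 93.7), while by fragments it changed by 3.43 and -2.37 points. The divergent lncRNA BTG2-DT starts 204 bp away, so the same regions lie within 1 kb of both starts.

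CCNG1 encodes cyclin G1, which recruits a phosphatase to MDM2. The CCNG1 summit in H3K27ac held 146 fragments with siCONT and 89 with siDLEU1, and its H3K4me3 summit 194 and 160. The ratios relative to the median gene were 0.769 (0.584 to 1.01) and 0.904 (0.729 to 1.12). The local control level was 0.497 and 2 in H3K27ac and 0.532 and 2 in H3K4me3, the opposite order to AEN and BTG2. The CCNG1 rank by fold enrichment changed by -67.1 points in H3K27ac (96.1 to 29.1), place 13588 of 13629 from the top, and by -14.7 in H3K4me3 (99.5 to 84.8). By fragments the changes were -19.5 and -0.945 points.

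CDKN1A encodes p21, the inhibitor of cyclin-dependent kinases. Its H3K27ac summit held 127 fragments with siCONT and 87 with siDLEU1 over the same local control level of 1, a ratio of 0.864 (0.650 to 1.14) relative to the median gene, and its rank changed from 73.5 to 56.3. The summit lay 741 bp downstream of the canonical TSS with siCONT and 428 bp with siDLEU1. These counts are thus from different places in overlapping regions. H3K4me3 formed one region upstream of the canonical TSS and another downstream of it. The upstream region, with its siCONT summit at -1550 bp, held 103 and 92 fragments and ranked at 89.6 and 90.1. The downstream region held 129 and 90 fragments over local control levels of 1 and 3, and ranked at 88.1 and 45.8. Its summit was at 728 bp with siCONT and at 322 bp with siDLEU1.

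MDM2 is the ubiquitin ligase that p53 induces and that in turn marks p53 for degradation. It had the most H3K4me3 fragments at a summit of all members, 236 with siCONT and 193 with siDLEU1, and a rank of 99.8 in both lists. Its H3K27ac summit held 137 and 104 fragments and ranked at 91.9 and 92.0. The ratios relative to the median gene were 0.958 (0.735 to 1.24) in H3K27ac and 0.897 (0.737 to 1.09) in H3K4me3.

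FAS, a death receptor, belongs with AEN to the apoptosis genes. Its H3K27ac summit held 127 fragments with siCONT and 94 with siDLEU1 and its H3K4me3 summit 151 and 104. In H3K27ac the ratio relative to the median gene was 0.934 (0.707 to 1.23), and in H3K4me3 it was 0.755 (0.583 to 0.976), inside the range of 0.621 to 1.54 that holds the 5th to 95th percentile of all genes. The H3K27ac rank changed from 73.5 to 61.9 and the H3K4me3 rank from 92.4 to 88.5. ACTA2 has a start 675 bp from one of FAS.

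SESN1 and SESN2 encode sestrins, which restrain mTORC1 signalling. At SESN2 the summits held 130 and 86 fragments in H3K27ac and 137 and 89 in H3K4me3, siCONT first. The SESN2 ratios relative to the median gene were 0.834 (0.628 to 1.10) and 0.712 (0.539 to 0.937), and its ranks changed from 92.0 to 76.1 and from 96.0 to 87.5. The local control level differed little, at 0.497 and 0.528 in H3K27ac and 0.532 and 0.558 in H3K4me3. At SESN1 the strongest regions lay far downstream of the canonical TSS, at a start inside the gene, with siCONT summits at 85632 bp in H3K27ac and 85546 bp in H3K4me3. They held 115 and 88 fragments in H3K27ac and 134 and 70 in H3K4me3. The H3K4me3 ratio there, 0.573 (0.423 to 0.770), was the lowest of the members, and the only one of 10 that was lower by at least 1.5 times, a size seen at 7.63% of genes. With the SESN1 region that had most fragments in each list the ratio was 0.697, which is under that size. That value compares different places, the start inside the gene with siCONT (134 fragments) and the canonical TSS with siDLEU1 (85 fragments). The H3K27ac rank of SESN1 rose by 15.4 points by fold enrichment and fell by 6.29 by fragments, with local control levels of 1 and 0.439. At its canonical TSS, 264 bp from a start of CEP57L1, a siCONT H3K27ac region of 2486 bp with 71 fragments stood where siDLEU1 had 3 regions of 907, 313 and 225 bp with 61, 51 and 39 fragments.

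ZMAT3 is a zinc finger protein that binds RNA and acts on splicing. The ZMAT3 summit in H3K27ac held 94 fragments with siCONT and 75 with siDLEU1 and its H3K4me3 summit 78 and 67. The H3K4me3 summit was at -275 bp from the canonical TSS with siCONT and at 75 bp with siDLEU1. The ratios relative to the median gene, 1.01 (0.733 to 1.38) and 0.942 (0.669 to 1.32), both have intervals that include 1. The H3K27ac rank of ZMAT3 changed from 55.2 to 18.9 by fold enrichment, with local control levels of 1 and 2, and by -5.40 points by fragments. GDF15, a secreted stress cytokine, had no H3K27ac region in either list. Its strongest H3K4me3 region lay just before an alternative upstream start, with its siCONT summit at -11884 bp from the canonical TSS. It held 95 fragments with siCONT and 91 with siDLEU1. The GDF15 region covering that start held 55 and 37 fragments and ranked at 66.8 and 55.7, siCONT first. Near the canonical TSS of GDF15, siCONT had weak H3K4me3 regions of 29 and 24 fragments and siDLEU1 had none, which is not the same as no mark, since only called regions are listed.

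**Figure D3:**
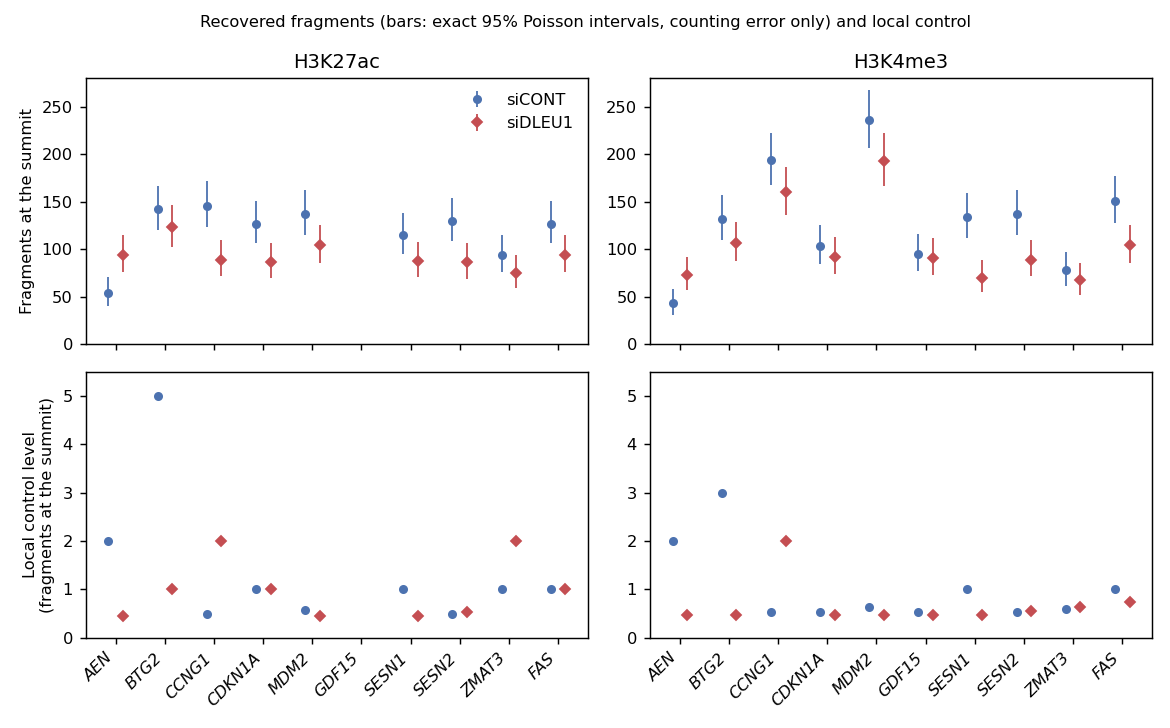
Fragments at the summit (top, with exact 95% Poisson intervals) and local control level in fragments (bottom) of the strongest region of each p53 target, H3K27ac on the left and H3K4me3 on the right, siCONT as circles and siDLEU1 as diamonds. AEN is the only one of these genes with more fragments with siDLEU1. Over all genes with a region in both lists, 90.5% have fewer in H3K27ac and 64.4% in H3K4me3. The control level of BTG2 is 5 with siCONT against 1 with siDLEU1 in H3K27ac.

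**Figure D4:**
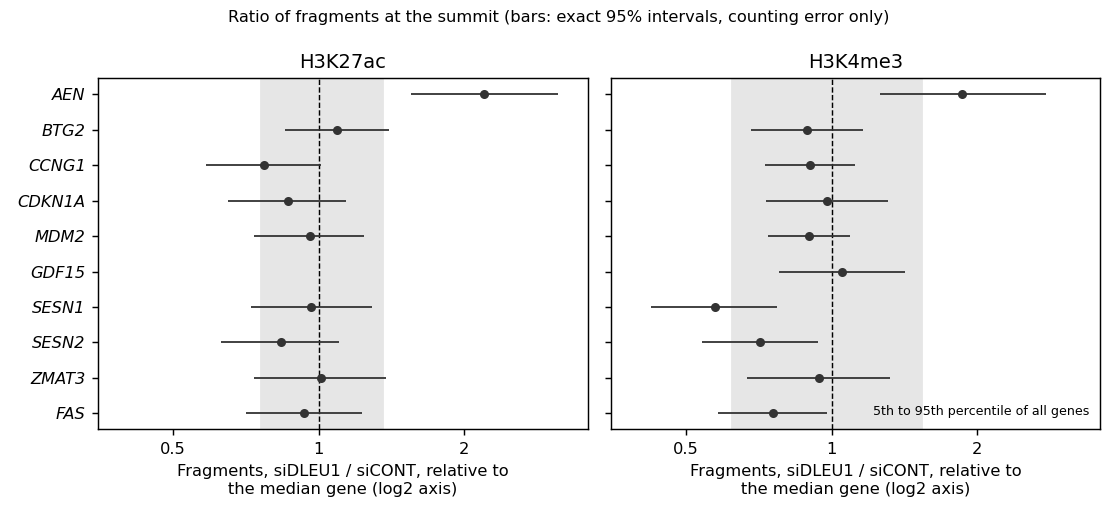
Ratio of fragments at the summit, siDLEU1 over siCONT and relative to the median gene, on a log2 axis, for H3K27ac on the left and H3K4me3 on the right, with exact 95% intervals for counting error and the 5th to 95th percentile of all genes in grey (0.758 to 1.36 and 0.621 to 1.54). AEN, at 2.20 and 1.86, lies above the grey band in both marks, and SESN1, at 0.573, lies below it in H3K4me3. Taking the SESN1 region of most fragments, which lies at different places with siCONT and siDLEU1, gives 0.697.

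The local control level differed between the siRNAs at several members. Among the 9 genes with an H3K27ac region it was at least 1.5 times lower with siDLEU1 at 3 (AEN, BTG2 and SESN1), the same 3 that ranked higher, against 22.9% of all genes. It was at least 1.5 times higher at 2 (CCNG1 and ZMAT3), which had the largest falls among the members, against 18.0% of genes. CDKN1A and FAS ranked lower at a level of 1 with both siRNAs. In H3K4me3 it was lower by that much at 3 members (AEN, BTG2 and SESN1) and higher at 1 (CCNG1), against 22.2% and 18.3%, and SESN1 ranked lower there, not higher. By fragments, 1 member (AEN) ranked higher by at least 10 points in H3K27ac and 3 (CCNG1, SESN2 and CDKN1A) ranked lower, against 5.12% and 31.1% of genes. In H3K4me3, 1 (AEN) ranked higher by fragments and 0 ranked lower, against 15.6% and 13.2%. The H3K27ac region was narrower with siDLEU1 at 9 of 9 members, and at 89.8% of all genes. In H3K4me3 it was narrower at 6 of 10 members, against 61.6%.

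**Figure D5:**
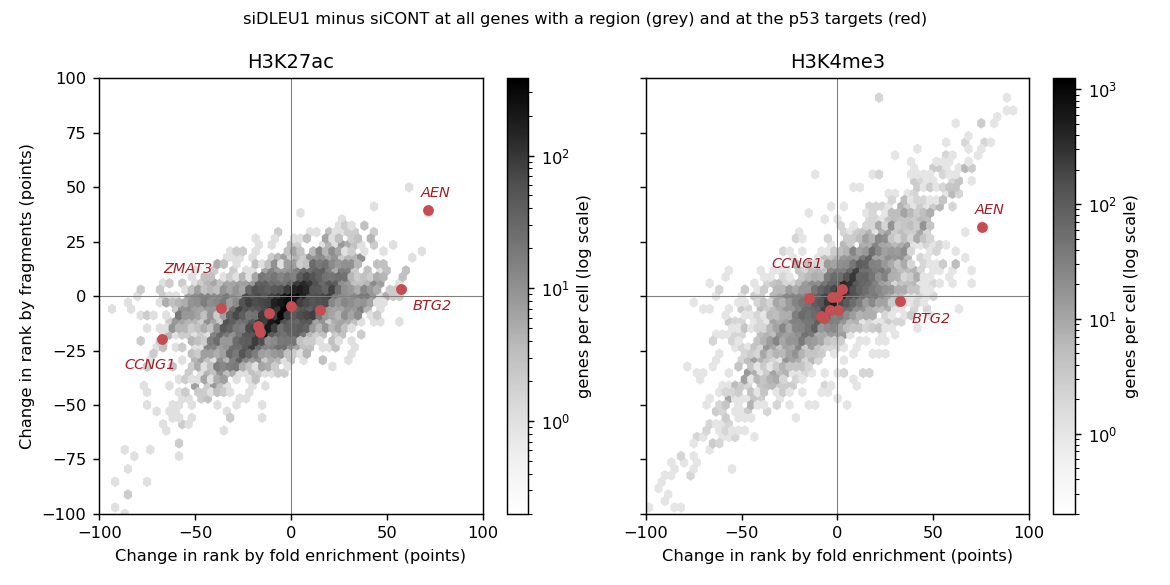
Change in percentile rank by fragments (vertical, points) against change by fold enrichment (horizontal, points), siDLEU1 minus siCONT, for all genes with a region (grey cells, darker with more genes on a log scale) and the p53 targets (red), H3K27ac on the left and H3K4me3 on the right. AEN is high on both axes (71.7 and 39.5 points in H3K27ac), whereas BTG2, at 57.6 and 3.43, is high on the horizontal axis alone.

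The other genes of the pathway were read from a list of 48 further p53 targets and a list of 20 regulators. Of 44 further targets with an H3K27ac region, 4 ranked higher and 17 lower by at least 10 points, with a median change of -6.82 points, beside 16.8% and 36.8% of all genes and a median of -4.55. Of 47 with an H3K4me3 region, 7 ranked higher and 10 lower, with a median of 0.523, beside 20.2%, 18.6% and 0.504 over all genes. The ratio of fragments, relative to the median gene, had a median of 0.999 in H3K27ac and 1.05 in H3K4me3 over these targets. Of the 20 regulators, 4 ranked higher and 10 lower in H3K27ac (median -6.33) and 4 higher and 2 lower in H3K4me3 (median 2.07), beside the same shares of all genes. By fragments the regulators counted 0 higher and 10 lower in H3K27ac, beside 5.12% and 31.1% of all genes. In H3K4me3 they counted 3 higher and 0 lower, beside 15.6% and 13.2%. The further targets counted 3 higher and 15 lower by fragments in H3K27ac, and 8 higher and 8 lower in H3K4me3.

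BAX and BBC3, apoptosis genes among the further targets, differed in direction. BAX, which permeabilises the mitochondrial membrane, held 86 H3K27ac fragments with siCONT and 88 with siDLEU1, and its rank changed from 67.6 to 82.5. BBC3, which encodes PUMA, held 104 and 48, a ratio of 0.582 relative to the median gene, and its rank changed from 79.5 to 39.4, over control levels of 0.497 and 0.439. GADD45A, a stress sensor, ranked at 94.1 and 89.9.

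The 3 largest H3K27ac falls in these lists were those of PLK2 (-53.0 points), TNFRSF10D (-47.7) and SUSD6 (-45.9). All 3 had a local control level of 2 with siDLEU1, and by fragments their changes were -1.49, 2.42 and -2.40 points. The 3 largest rises were those of KAT5 (37.5 points), ASCC3 (33.6) and PLK3 (29.3), with changes by fragments of 6.50, -9.24 and 30.4. PLK3, a stress-response kinase, held 70 fragments with siCONT and 96 with siDLEU1, a ratio of 1.73 relative to the median gene, over control levels of 0.497 and 0.510.

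Among the regulators, MDM4, the partner of MDM2, held 104 H3K27ac fragments with siCONT and 67 with siDLEU1 and ranked at 79.5 and 57.8. TP63, the p53 relative that specifies squamous epithelium, held 84 and 63 and ranked at 58.4 and 45.3. H3K27ac regions of EDA2R, TRIM22 and TP73 were listed with siCONT only, with 20, 63 and 35 fragments, as were H3K4me3 regions of TP53AIP1, TNFRSF10C and SPATA18, with 41, 29 and 32. A region in the siCONT list only was seen at 5.62% of genes in H3K27ac and 3.24% in H3K4me3.

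The 3 genes whose ranks over the 4 libraries were nearest to those of AEN, by Euclidean distance, were CAD (22.4 points away), INTS15 (24.6) and PHC1 (30.5). CAD ranked at 23.6 and 78.0 in H3K27ac and 26.2 and 86.4 in H3K4me3, siCONT first.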

How the data were processed

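H3K27ac and H3K4me3 ChIP-seq of HSC3 cells was read from 4 peak lists, 1 per siRNA and mark. The authors mapped reads to hg19 with bowtie2 and called peaks in each library with MACS2, whose settings are not given in the sources used here. The deposited lists give each region's fold ratio over local control, its −log10 p and −log10 q, and a display score that was not used. The 2 input libraries were not analysed here.

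MACS2 derives fold and p from the fragments at the summit, a scaling factor and the local control level. These were solved for each region, assuming that 1 is added to signal and control in the fold. In every list 100% of regions had a close solution with whole fragments and an allowed control level. On simulated lists the fragments of 100% of regions were recovered. Those lists were made with the same formula, so they check the solving and cannot check the assumed settings. Depth in reads assumes a genome of 2.7 Gb. TSSs were those of all GENCODE transcripts on GRCh37 (hg19), in genes with a curated RefSeq symbol. A gene took its strongest region by fold enrichment within 1 kb of any TSS, and the region with most fragments when ranked by fragments. Calls were 10 percentile points, or 1.5 times for ratios.

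All 10 members were described. From the longer lists MDM4, TP63, BAX, BBC3 and GADD45A were named, with genes having a region in only 1 list of a mark, the 3 largest falls and 3 largest rises in H3K27ac rank, and the 3 genes nearest AEN. One gene of this rule is not reported here. The members and lists were chosen with earlier results of these data known. The 9 settings varied beforehand and 2 chosen after seeing the data are given in the closing section. Python 3.11.15, numpy 2.4.6, pandas 2.3.3, scipy 1.17.1 and matplotlib 3.10.9 were used.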

Additional observations from a re-analysis of the deposited data

How the results depend on the processing

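The H3K27ac median change of the members, -11.5 points, kept its sign under all 9 other settings. It was -25.6 with a −log10 q of at least 10, -6.29 by recovered fragments, -15.1 with regions within 1 kb stitched, -8.45 with equal numbers of regions and -17.1 where the region had to cover the TSS base. Over all genes the median was negative under every setting too, from -1.44 with equal numbers of regions to -11.2 with that limit on q. By fragments, 3 members were lower and 1 higher by at least 10 points, in place of 5 and 3, beside 31.1% and 5.12% of all genes. In H3K4me3 the count of lower members, 1, became 3 with a −log10 q of at least 10, beside 23.2% of all genes. It became 2 with 1 TSS per gene, stitching or the TSS base, beside 18.7%, 21.3% and 18.8%. It was 0 by −log10 p or by fragments, beside 15.7% and 13.2%. The count of higher members, 2, became 1 by fragments, beside 15.6% of all genes. It stayed 2 otherwise, beside 17.8% to 35.9%. The median, -1.37, became -2.36 with 1 TSS per gene and -2.67 with the TSS base. The SESN1 H3K27ac change of 15.4 reversed to -6.29 by fragments and to -45.5 with the TSS base, and the BTG2 H3K4me3 change of 32.7 reversed to -2.37 by fragments. The -45.5 sets the region inside SESN1 with siCONT against the canonical TSS with siDLEU1. With the TSS base, SESN2 in H3K27ac changed by -92.0 in place of -16.0, its siDLEU1 region starting 30 bp past the TSS. BTG2 in H3K4me3 changed by 93.7, its main siCONT region starting 1 bp past the canonical TSS. Among changes under 10 points, the sign turned at 3 members: MDM2 in H3K27ac (0.0835) fell to between -0.435 and -4.56 under 4 settings, CDKN1A in H3K4me3 (0.46) to between -1.04 and -6.30 under 2, and GDF15 in H3K4me3 (2.45) to -10.8 with 1 TSS per gene and -11.1 with the TSS base. Beside the 3 reversed changes above, 83 values of single members lay outside the 95% binomial counting interval of their percentile change and 84 inside it, and 9 fragment ratios lay outside their Poisson counting interval and 29 inside it.

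The fragment ratio depends on what it is set against. Relative to recovered depth, a setting chosen after seeing the data, the members' H3K27ac median was 0.555 in place of 0.958. AEN was then at 1.27 in H3K27ac in place of 2.20, which ends its call at 1.5 times. In H3K4me3 it was at 2.16 in place of 1.86. In H3K27ac, 8 of 9 members were lower by at least 1.5 times in place of 0, beside 80.8% of all genes. With the region of most fragments, also chosen after seeing the data, SESN1 in H3K4me3 was at 0.697 in place of 0.573, which ends its call, and CDKN1A at 0.784 in place of 0.979. In both genes that region differs in place between siRNAs, so these ratios do not follow a single region. With 1 library per siRNA and mark and no test, no paired analysis was possible and no replicate could be left out. Nor can the siRNA and the library be told apart.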
